A study of Rattus norvegicus with 3 samples.

Results

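Of the 10411 genes on the array, 9 genes of the cell division cycle were followed in cultured ventricular myocytes of newborn rats. They are the D-type cyclins Ccnd1, Ccnd2 and Ccnd3, the replication clamp Pcna, and the G2 and mitosis genes Top2a, Ccnb1, Cdk1, Ube2c and Kif20a. All probe sets to which the platform annotation gives 1 gene symbol from this list were taken, which were 13 of the 12783 probe sets with 1 symbol. Total RNA had been hybridised to 3 Affymetrix rat arrays, 1 per condition. The cells had been cultured for 48 h with 1 µM PAMH, for 48 h with 20 µM phenylephrine, or for 48 h with no stimulus, and no other agent or genotype is named for any of the conditions. Phenylephrine activates α1-adrenergic receptors and enlarges cultured cardiac myocytes, and PAMH is known here only by the submitters' code name. The compounds were used at different doses, so their values are given side by side.

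Cell division is driven by cyclins, which bind and switch on cyclin-dependent kinases. D-type cyclins respond to growth signals and, with the kinases Cdk4 and Cdk6, start inactivation of the retinoblastoma protein in G1. The genes of S phase, G2 and mitosis then follow in order, and the anaphase-promoting complex ends mitosis by having cyclin B and other proteins destroyed. Ventricular myocytes withdraw from the cell cycle around birth in rodents, and hypertrophic agonists enlarge them largely without division. Cultures of newborn ventricle also hold dividing fibroblasts and other cells, so dividing myocytes and dividing non-myocytes cannot be told apart in these RNA pools. Nor can more dividing cells be told apart from more messenger RNA per dividing cell.

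Each array was scaled to the same median over its non-control probe sets, with factors of 1.04 for PAMH, 1.02 for phenylephrine and 0.938 for the unstimulated array. Before this scaling the deposited medians stood at a log2 ratio of -0.15 for PAMH and -0.13 for phenylephrine, each over the unstimulated array. All signals below are scaled intensities, and all ratios compare 1 probe set between arrays. A ratio needed both arrays at or above a floor of 76.1, which is percentile 40 of all scaled values, and all 9 genes passed it on all 3 arrays. Genes with several probe sets were represented by the brightest. With 1 array per condition no difference has a replicate check, and no standard error or p-value could be had. As a technical yardstick, the log2 ratios of probe sets that read 1 gene were compared, and their pooled SD was 0.29 for PAMH over unstimulated (867 genes), 0.27 for phenylephrine over unstimulated (864 genes) and 0.23 for PAMH over phenylephrine (866 genes). It holds no variation between cultures. The ratio of 3′ to 5′ actin control signals, which rises as RNA degrades, was 1.54 with PAMH and 1.44 with phenylephrine, against 1.72 unstimulated. That of Gapdh was 1.01 with PAMH and 1.07 with phenylephrine, against 1.04 unstimulated, and the part of RNA integrity in the members' ratios was not tested.

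The first question was how these genes differed between treated and unstimulated myocytes. With PAMH, 6 of the 9 were at least 1.5-fold higher and none was 1.5-fold lower: Ccnb1, Top2a, Ube2c, Kif20a, Ccnd2 and Cdk1. With phenylephrine 4 of the 9 were at least 1.5-fold higher and none 1.5-fold lower: Ccnd1, Ube2c, Kif20a and Ccnb1. Of all measured genes, 9.31% passed the same threshold upwards and 4.17% downwards with PAMH, and 8.90% upwards and 4.54% downwards with phenylephrine. The median log2 ratio of the 9 genes was 0.68 with PAMH and 0.53 with phenylephrine, beside 0.10 and 0.07 for all measured genes. The 9 genes were chosen with earlier results of these data known, so these contrasts with all genes only describe a chosen set. No member reached 2-fold by its brightest probe set in these comparisons, where 2.05% of all genes were at least 2-fold higher with PAMH and 2.62% with phenylephrine. Both comparisons use the same unstimulated array, so a deviation of that array would move the ratios of both.

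The split of all genes depended on the scaling, whereas the members were never 1.5-fold lower under any of the 10 processing alternatives. On the deposited intensities 5.33% of genes were higher and 7.84% lower with PAMH, and 5.98% were higher and 7.83% lower with phenylephrine. After quantile normalization the shares were 6.44% and 5.74% with PAMH, and 7.26% and 5.92% with phenylephrine. After cyclic loess they were 6.45% and 5.50% with PAMH, and 7.52% and 5.48% with phenylephrine. The members counted as higher with PAMH were 4 under these 3 alternatives, Ccnd2 and Cdk1 then lying below 1.5-fold. With phenylephrine the count was 4 under 9 alternatives and 5 on the mean of all probe sets, which added Top2a. Every member lay above each floor, and changing the floor or the symbols left all member ratios at their main value. The mean of all probe sets could not move members with a single probe set either. Counts out of 10 alternatives below include such settings.

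**Figure D1:**
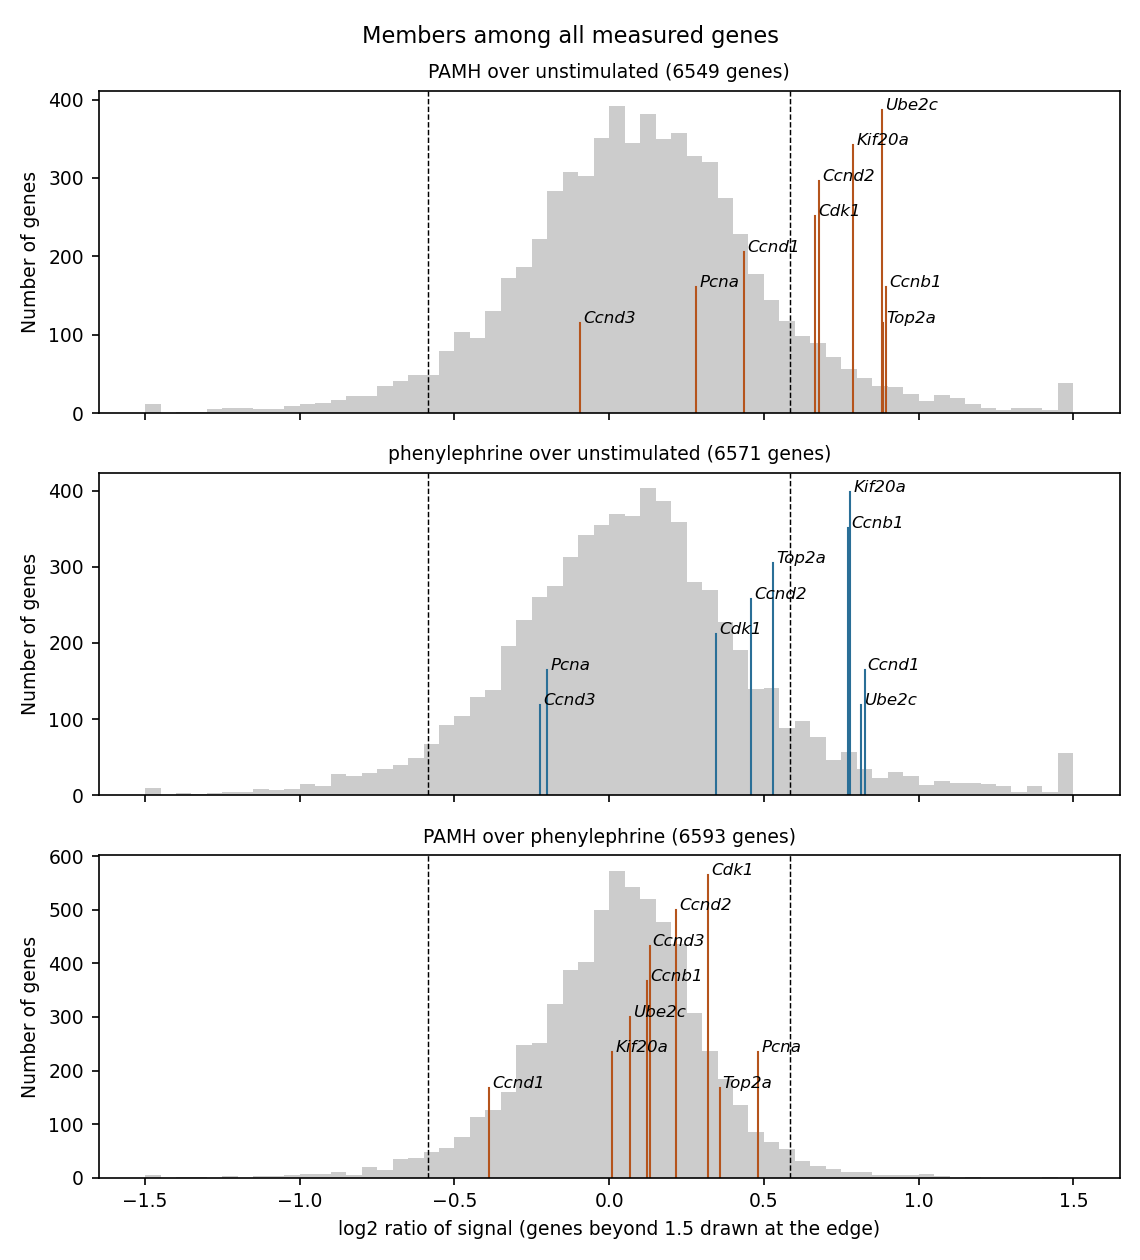
Number of measured genes (vertical axis) by log2 ratio of signal (horizontal axis, bins of equal width) for PAMH over unstimulated (6549 genes), phenylephrine over unstimulated (6571 genes) and PAMH over phenylephrine (6593 genes), genes beyond a log2 ratio of 1.5 standing at the edge, and with a labelled line at the ratio of each of the 9 genes, the line's height having no meaning. Dashed lines mark 1.5-fold, which 6 members pass in the first panel, 4 in the second and none in the third.

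The D-type cyclins did not move as a group. Ccnd1, the cyclin most directly tied to growth factor signals, had a signal of 612 on the PAMH array and 802 on the phenylephrine array, against 453 on the unstimulated array. It was highest with phenylephrine, at 1.77-fold (log2 ratio 0.83), and 1.35-fold higher with PAMH (0.44). Of all measured genes, 95.9% had a lower ratio than Ccnd1 with phenylephrine and 83.5% with PAMH. Its second probe set read 521 with PAMH and 653 with phenylephrine, against 386 unstimulated. The third read 170.3 with PAMH and 270.2 with phenylephrine, against 138 unstimulated. All 3 probe sets therefore ordered the arrays alike, with log2 ratios from 0.76 to 0.97 with phenylephrine and from 0.30 to 0.44 with PAMH.

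Ccnd2, a D-type cyclin that drives myocyte DNA synthesis when overproduced in the hearts of mice, showed the other order. Its single probe set read 1327 with PAMH and 1142 with phenylephrine, against 830.1 on the unstimulated array. The fold was 1.60 with PAMH (log2 ratio 0.68) and 1.38 with phenylephrine (0.46). The PAMH ratio lay below 1.5-fold in 3 of 10 processing alternatives, down to 0.46. These were the deposited intensities, quantile normalization and cyclic loess. Of the other alternatives, only percentile 75 scaling and the offset of 50 could move it. Ccnd3, the D-type cyclin best known from lymphoid and differentiating muscle cells, read 621 with PAMH and 567 with phenylephrine, against 663 unstimulated. Its log2 ratios of -0.09 and -0.22 were each smaller than the SD between probe sets of a gene. They stayed negative under all 10 alternatives, from -0.26 to -0.09 with PAMH and from -0.36 to -0.21 with phenylephrine. Cdk4, a kinase partner of all D-type cyclins that was picked out after its values were seen, read 512 and 504 against 538, with log2 ratios of -0.07 with PAMH and -0.09 with phenylephrine. Cdk6, picked out in the same way, lay below the floor on all 3 arrays.

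Pcna encodes the sliding clamp that holds DNA polymerase on its template during S phase, and it also serves in DNA repair. Its single probe set read 1866 with PAMH and 1337 with phenylephrine, against 1535 unstimulated. The log2 ratio was 0.28 with PAMH, which became -0.01 after quantile normalization, and -0.20 with phenylephrine. Both ratios were smaller than the SD between probe sets, and neither direction passed 1.5-fold under any alternative. Pcna was thus the one member that lay above its unstimulated signal on the PAMH array and below it on the phenylephrine array, in the main setting and in 9 of 10 alternatives.

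The G2 and mitosis genes were all higher with both compounds. All 5 were at least 1.5-fold higher with PAMH, with a median of 1.84-fold, and 3 of 5 with phenylephrine, with a median of 1.71-fold. Of all measured genes, 9.31% were so with PAMH and 8.90% with phenylephrine. As the members were chosen with earlier results known, these counts only describe them. Ccnb1, the cyclin B that brings cells into mitosis, had a signal of 743 with PAMH and 683 with phenylephrine, against 399.6 unstimulated. Its second probe set read 426 and 408 against 258. The folds of the brightest were 1.86 with PAMH (log2 ratio 0.89) and 1.71 with phenylephrine (0.77), and those of the second 0.72 and 0.66 on the log2 scale, so that both probe sets passed 1.5-fold with each compound.

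Cdk1, the kinase that cyclin B activates, differed less than its partner. It read 793 with PAMH and 636 with phenylephrine, against 501 unstimulated. The fold was 1.58 with PAMH (log2 ratio 0.66) and 1.27 with phenylephrine (0.34). The PAMH ratio ranged from 0.51 to 0.66 over the 10 alternatives and passed 1.5-fold in 7 of them. It fell below 1.5-fold on the deposited intensities, after quantile normalization and after cyclic loess. Of the 7, only percentile 75 scaling and the offset of 50 could move it. The phenylephrine ratio stayed below 1.5-fold in all 10, at 0.22 to 0.34.

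Top2a, the topoisomerase that untangles sister chromatids, read 639.9 with PAMH and 499.7 with phenylephrine, against 346 unstimulated. A second probe set read 336 and 282 against 161. The brightest gave 1.85-fold with PAMH (log2 ratio 0.89) and 1.44-fold with phenylephrine (0.53). The second gave larger log2 ratios of 1.06 with PAMH, past 2-fold, and 0.81 with phenylephrine, past 1.5-fold. The probe sets thus gave the same order of arrays and disagreed on the 1.5-fold call with phenylephrine.

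Ube2c, the ubiquitin-conjugating enzyme of the anaphase-promoting complex, read 673 with PAMH and 642 with phenylephrine, against 365 unstimulated. It was 1.84-fold higher with PAMH (log2 ratio 0.88) and 1.76-fold higher with phenylephrine (0.81). Kif20a, a kinesin of the central spindle needed for cytokinesis, read 456 with PAMH and 453 with phenylephrine, against 264 unstimulated, which is 1.73-fold (0.79) and 1.72-fold (0.78). Ube2c, Kif20a and Ccnb1 passed 1.5-fold with both compounds under all 10 alternatives. Their lowest log2 ratio over these alternatives was 0.63 with PAMH, for Kif20a, and 0.65 with phenylephrine, for Ccnb1. In each comparison with unstimulated cells their ratios exceeded those of at least 95.2% of all measured genes.

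**Figure D2:**
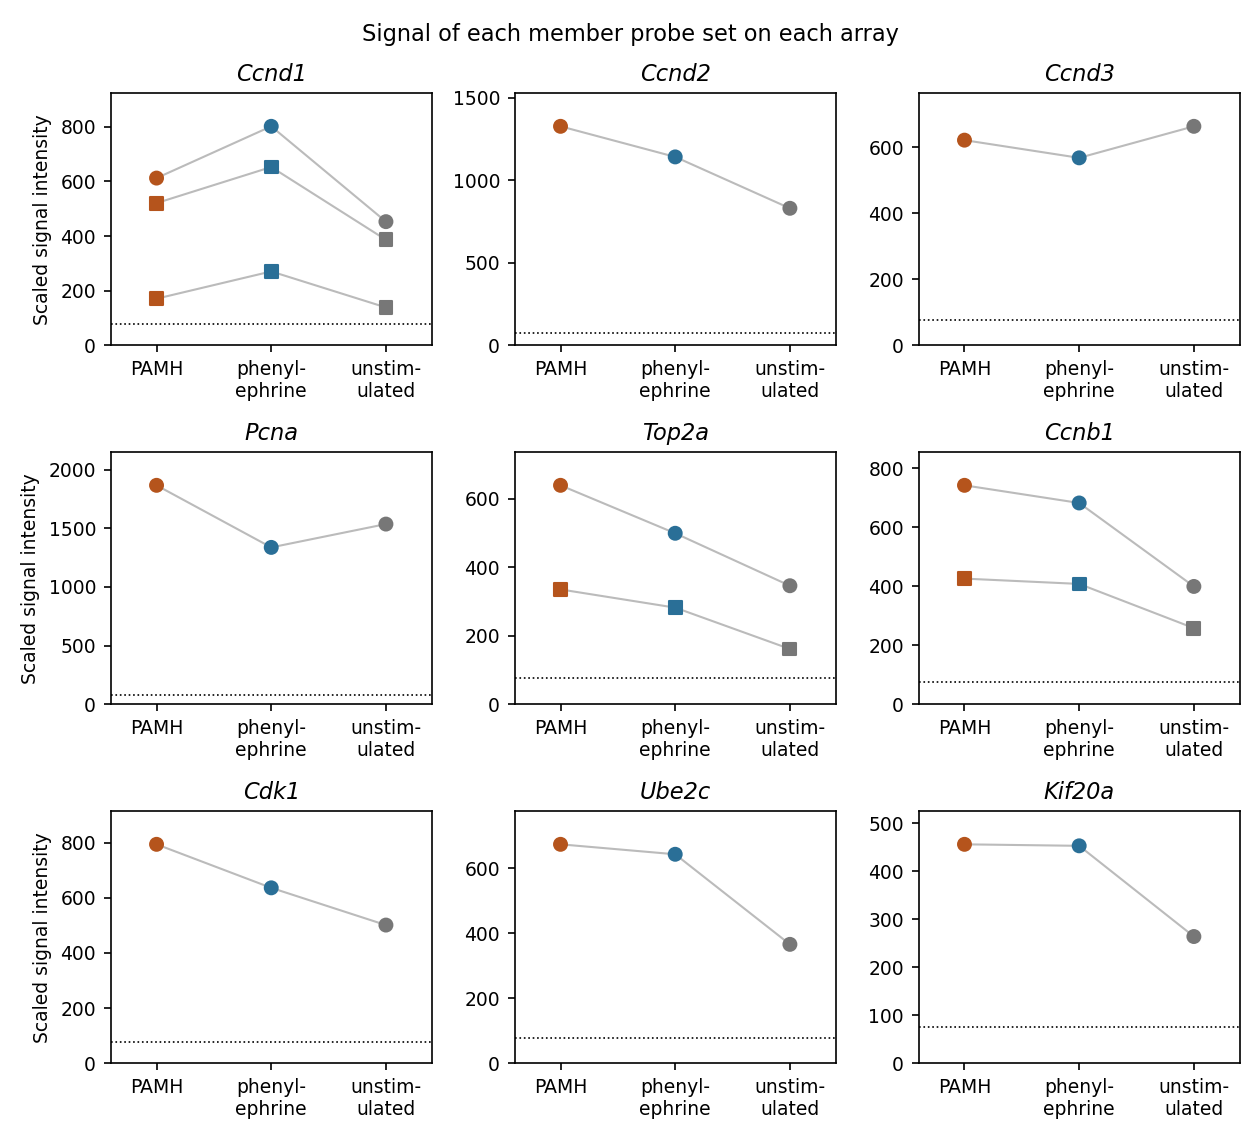
Scaled signal intensity (vertical axis, linear from 0, a different range in each panel) of each probe set of the 9 genes on the PAMH, phenylephrine and unstimulated arrays. Circles are the brightest probe set of a gene, squares its other probe sets, lines join 1 probe set, and the dotted line is the floor of 76.1; all probe sets of the 5 G2 and mitosis genes lie above their unstimulated signal on both treated arrays, while Ccnd1 peaks with phenylephrine and Ccnd3 is highest without stimulus.

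Promoters of the genes that were higher together are printed to show the elements known from this class of genes. Periodic genes of G2 and mitosis typically carry CCAAT boxes, bound by NF-Y, and a cell cycle genes homology region (CHR), bound by the DREAM and B-MYB-MuvB complexes, and E2F sites mark genes of the G1 to S transition. The windows come from RefSeq on rat build GRCr8, run from 250 bases before to 50 bases after the gene's start, and are written 5′ to 3′ on the gene's strand. Capitals mark every match, on either strand, to CCAAT, to the CHR letters TTTGAA or to the E2F-like letters TTTNNCGC, none of which overlap here. The regions are chr2:33655176-33655475 on the minus strand for Ccnb1, chr20:19265043-19265342 on the plus strand for Cdk1, chr10:84473044-84473343 on the minus strand for Top2a and chr18:26504172-26504471 on the plus strand for Kif20a.
Ccnb1: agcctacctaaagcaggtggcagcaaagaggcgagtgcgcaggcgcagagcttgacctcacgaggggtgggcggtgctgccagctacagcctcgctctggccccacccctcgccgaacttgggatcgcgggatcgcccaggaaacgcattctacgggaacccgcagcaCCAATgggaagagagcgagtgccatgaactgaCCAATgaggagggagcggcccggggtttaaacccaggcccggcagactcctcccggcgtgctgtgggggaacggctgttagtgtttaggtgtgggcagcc
Cdk1: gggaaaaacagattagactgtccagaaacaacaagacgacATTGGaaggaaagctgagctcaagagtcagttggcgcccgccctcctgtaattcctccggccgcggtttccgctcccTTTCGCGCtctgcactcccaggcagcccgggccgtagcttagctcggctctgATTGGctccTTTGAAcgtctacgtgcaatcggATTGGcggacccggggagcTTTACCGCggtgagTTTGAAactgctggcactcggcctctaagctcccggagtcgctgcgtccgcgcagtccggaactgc
Top2a: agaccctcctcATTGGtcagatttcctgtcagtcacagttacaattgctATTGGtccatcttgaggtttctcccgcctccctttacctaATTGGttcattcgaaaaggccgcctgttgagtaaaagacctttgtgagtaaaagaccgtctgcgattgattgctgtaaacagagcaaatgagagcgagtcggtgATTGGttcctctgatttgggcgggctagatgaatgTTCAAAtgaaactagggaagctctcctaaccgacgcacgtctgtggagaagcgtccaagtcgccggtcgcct
Kif20a: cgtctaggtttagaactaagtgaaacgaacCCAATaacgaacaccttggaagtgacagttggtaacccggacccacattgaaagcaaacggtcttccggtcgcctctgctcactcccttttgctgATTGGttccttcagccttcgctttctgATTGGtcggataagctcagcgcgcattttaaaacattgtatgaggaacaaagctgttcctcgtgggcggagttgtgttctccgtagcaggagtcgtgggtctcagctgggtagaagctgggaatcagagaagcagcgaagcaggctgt

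The Cdk1 window held 2 CHR matches, at -72 to -67 and at -16 to -11 from the start, with 3 CCAAT boxes and 2 E2F-like matches. The Top2a window held 1 CHR match on the reverse strand, at -22 to -17, and 4 CCAAT boxes, all on the reverse strand. The Ccnb1 window held 2 CCAAT boxes, at -82 to -78 and at -50 to -46. The Kif20a window held 3 CCAAT boxes, at -220 to -216, -125 to -121 and -98 to -94. Promoters of 6 of the 9 genes were matched in the table, the other two being Ccnd3 and Pcna with 1 CCAAT box each, and Ccnd1, Ccnd2 and Ube2c were not used here. Of 27457 rat promoters of the same length, 37.7% held CCAAT, 18.1% held the CHR letters and 5.19% held the E2F-like letters on either strand. These matches describe the letters and were not tested as binding sites. For the CHR only the letters TTTGAA were searched, so windows without them, as of Ccnb1 and Kif20a, are not shown to lack a CHR.

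The next comparison set the PAMH array against the phenylephrine array. No member differed by 1.5-fold by its brightest probe set, where 1.93% of all measured genes were higher and 2.67% lower with PAMH at that threshold. The median log2 ratio of the 9 genes was 0.13, beside 0.04 for all measured genes. Of the members 8 lay above 0, and 7 did after quantile normalization, after cyclic loess, with percentile 75 as the scaling point and without scaling, where Kif20a turned to the other side.

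Pcna had the highest ratio of the members, with 1866 on the PAMH array and 1337 on the phenylephrine array. That is 1.40-fold (log2 ratio 0.48), a higher ratio than that of 95.9% of all measured genes, and it ranged from 0.42 to 0.48 over the alternatives. Top2a and Cdk1 followed, at 1.28-fold (0.36) and 1.25-fold (0.32). Ccnd2 was 1.16-fold higher (0.22), and Ccnd3, Ccnb1, Ube2c and Kif20a had log2 ratios from 0.01 to 0.13, below the SD of 0.23 between probe sets. Ccnd1 stood on the other side, with 612 on the PAMH array and 802 on the phenylephrine array, a log2 ratio of -0.39. Its other probe sets gave -0.33 and -0.67, the last past 1.5-fold, and the ratio was negative under all 10 alternatives.

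**Figure D3:**
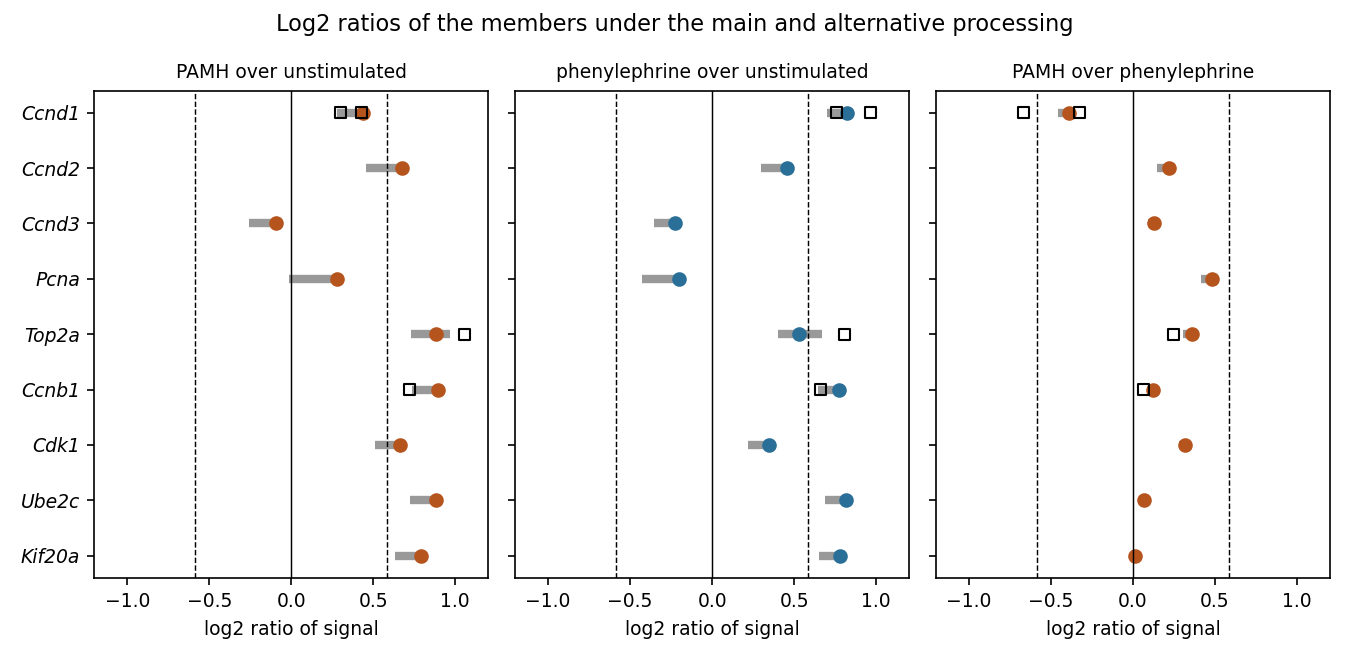
Log2 ratio of signal (horizontal axis) of the 9 genes (rows) for PAMH over unstimulated, phenylephrine over unstimulated and PAMH over phenylephrine. Filled circles are the brightest probe set in the main setting, open squares the other probe sets, grey bars the range over 10 processing alternatives and dashed lines 1.5-fold; Ccnd1 lies left of 0 in the last panel, Pcna has the highest ratio there, and the bar of Pcna reaches -0.01 in the first.

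Genes of the same processes that are not members were described from lists. The lists too were chosen with earlier results of these data known, so their contrasts with all genes are descriptions. Of 90 listed genes of mitosis and cytokinesis, 51 were on the array. With PAMH 42 could be compared, and 14 of these were at least 1.5-fold higher and 1 was lower. Their median log2 ratio was 0.35. With phenylephrine 42 could be compared, and 9 of these were higher and 0 lower, at a median log2 ratio of 0.22. The medians of all genes were 0.10 and 0.07, and 9.31% and 8.90% of all genes were 1.5-fold higher. The count with PAMH was 9 on the deposited intensities and 11 after quantile normalization or cyclic loess, and the count with phenylephrine was 8, 7 and 8 in the same settings.

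The genes of this list with the highest ratios past 1.5-fold were Tacc3, Dlgap5, Cks2 and Depdc1 with PAMH, and Depdc1, Tacc3, Cdca8 and Dlgap5 with phenylephrine. Tacc3, a spindle protein that Aurora A kinase binds, read 241 with PAMH and 190.0 with phenylephrine, against 109 unstimulated, with folds of 2.21 and 1.74. Dlgap5, a protein of spindle microtubules, read 432 and 342 against 202, with folds of 2.14 and 1.69. Cks2, a small subunit that binds Cdk1, read 906 and 702 against 433, with log2 ratios of 1.06 and 0.70. Depdc1 read 186 and 164 against 88.9, which is near the floor, and was 2.09-fold higher with PAMH and 1.84-fold with phenylephrine. Cdca8, a subunit of the chromosomal passenger complex, read 231 and 212 against 123, with log2 ratios of 0.91 and 0.79. Cdc25b, a phosphatase that activates Cdk1, did not reach the floor in unstimulated cells and read 117 with PAMH and 135 with phenylephrine, at least 1.53-fold and 1.78-fold higher. Cenpe, a kinetochore kinesin that did not reach it either, read 127 with PAMH, at least 1.67-fold higher. Both were named after their values were seen. Wee1, the kinase that holds Cdk1 inactive, was the gene 1.5-fold lower with PAMH, at 97.8 against 149 unstimulated (1.52-fold lower), with 146 on the phenylephrine array.

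The replication list differed less. Of 58 listed genes of DNA replication and nucleotide supply 41 were on the array and 35 could be compared with each compound. With PAMH 4 of the 35 were at least 1.5-fold higher, a share near the 9.31% of all measured genes, and 0 were lower, and the median log2 ratio was 0.22. With phenylephrine 0 were higher and 1 lower, beside 8.90% and 4.54% of all measured genes, and the median was 0.11. The count of 4 with PAMH was 0 on the deposited intensities and 3 after quantile normalization or cyclic loess. The 4 genes were Asf1b, a histone chaperone, Mcm6 and Mcm3, subunits of the replicative helicase, and Dut, which removes dUTP from the nucleotide pool. Mcm6 read 395 with PAMH and 292 with phenylephrine, against 239.9 unstimulated. Mcm3 read 291 with PAMH and 201 with phenylephrine, against 186 unstimulated. Dut read 1418 and 1006 against 918. Asf1b read 130.4 and 98.5 against 78.4, the last near the floor. These 4 genes were named for passing 1.5-fold with PAMH, which 0 of the list did with phenylephrine. Their smaller differences with phenylephrine therefore follow from how they were picked. Of 33 genes of the list compared between the treated arrays, 24 were higher with PAMH, beside 56.7% of all measured genes. Others, such as Orc6, were lower with PAMH than with phenylephrine. Orc5, of the origin recognition complex, was the gene lower with phenylephrine, at 110 and 96.1 against 154 by its brightest probe set. Its other probe set gave log2 ratios of -1.07 with PAMH and -0.94 with phenylephrine, so it was past 1.5-fold lower with both. On the mean of all probe sets 1 gene of the list was lower with PAMH.

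Of 25 listed G1 partners of the cyclins and E2F and retinoblastoma family genes, 18 were on the array. With PAMH 1 of 14 was 1.5-fold higher and 0 were lower, and the median log2 ratio was -0.01. With phenylephrine 1 of 15 was higher and 1 lower, at a median of -0.07. Of all measured genes, 9.31% were higher and 4.17% lower with PAMH, and 8.90% and 4.54% with phenylephrine. The shares of this list that were higher were near those of all genes. The higher gene was Ccng1, a target of p53 that codes for cyclin G1, at 2618 with PAMH and 2423 with phenylephrine, against 1372 unstimulated. The lower was Rbl2, the retinoblastoma relative p130 of resting cells, at 158 and 129 against 236, 1.83-fold lower with phenylephrine. Myc, an inducer of growth and division named after its values were seen, read 133 unstimulated and lay below the floor with PAMH, at least 1.74-fold lower. Of the 7 listed CDK inhibitors 4 could be compared with each compound, 1 of them higher and 1 lower with PAMH and 0 higher and 1 lower with phenylephrine. The shares of all measured genes given above apply here too, and 4 genes are too few to set against them. Cdkn1c, which encodes p57, read 85.1 with PAMH and 136 with phenylephrine, against 240.0 unstimulated, 2.82-fold and 1.77-fold lower. The PAMH signal of Cdkn1c lay near the floor, and its log2 ratio ranged from -1.65 to -1.10 over the 9 alternatives that gave one. Cdkn2c, which encodes the Cdk4 and Cdk6 inhibitor p18, read 319 and 214 against 205. Its log2 ratio of 0.64 with PAMH passed 1.5-fold in 6 of 10 alternatives. It fell below 1.5-fold on the deposited intensities, with percentile 75 scaling, after quantile normalization and with the offset of 50.

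**Figure D4:**
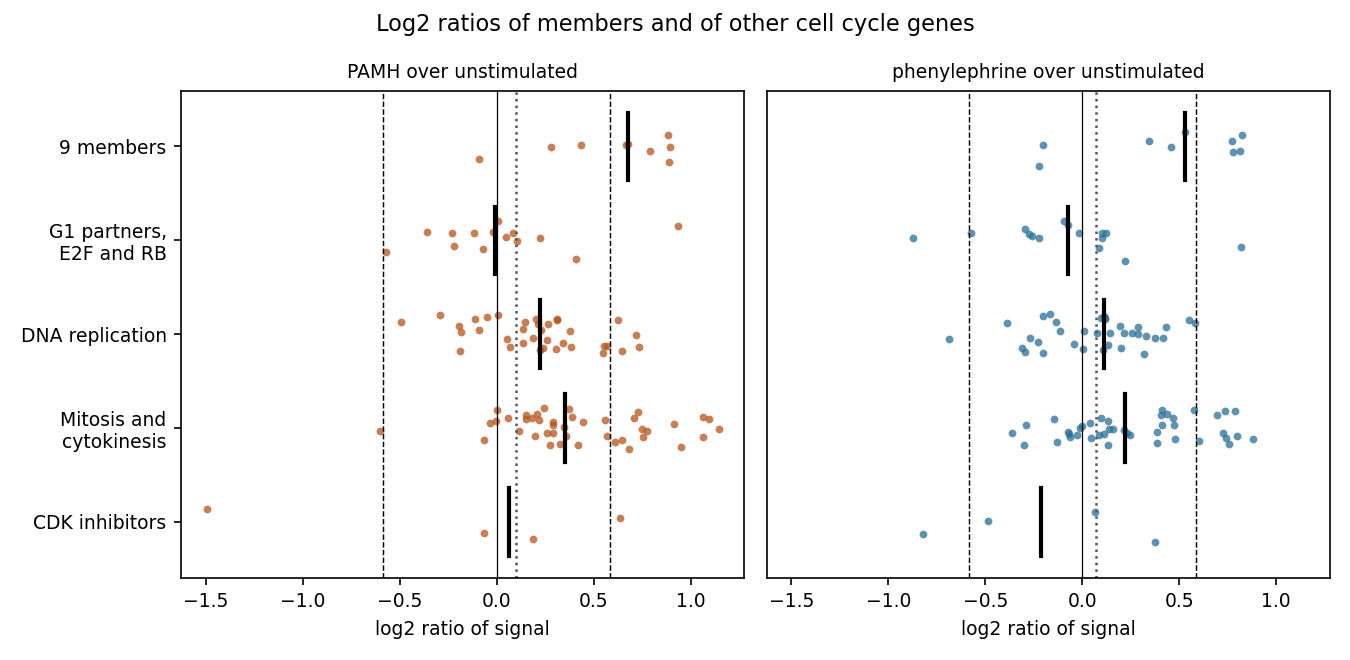
Log2 ratio of signal (horizontal axis) for PAMH over unstimulated and phenylephrine over unstimulated, with 1 point per measured gene of the 9 members and of 4 lists of other cell cycle genes (rows, points spread vertically at random). Thick bars are medians, dotted lines the median of all measured genes and dashed lines 1.5-fold; the median of the mitosis list is 0.35 with PAMH and 0.22 with phenylephrine, and that of the G1 list -0.01 and -0.07.

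Markers of the cell types in such cultures were read on the same arrays. All 13 myocyte markers on the array, of 14 listed, were above the floor on every array, among them Nppa, Tnnt2, Myh6 and Ryr2. Their summed signal was 136069 with PAMH and 115153 with phenylephrine, against 89900.1 unstimulated. Their median log2 ratio had no settled direction, being 0.42 with PAMH and 0.17 with phenylephrine but -0.13 and -0.18 after quantile normalization. The 16 fibroblast and matrix markers had a summed signal of 15417 with PAMH and 17684 with phenylephrine, against 20070 unstimulated. Of these, 14 were above the floor on all arrays. With PAMH 7 of these 14 were at least 1.5-fold lower, led by Postn at 213 against 721, and none higher, beside 4.17% of all measured genes lower. The count was 11 after quantile normalization and 9 after cyclic loess. With phenylephrine 1 of the 14, Dcn, was lower and none higher, beside 4.54% of all genes lower, and the count was 5 after quantile normalization and 3 after cyclic loess. Of the 14, 2 lay above 0 with PAMH and 3 with phenylephrine. Sparc was highest with PAMH, at a log2 ratio of 0.30. Thy1 was highest with phenylephrine, at 0.53, but its other probe set gave -0.53. Vim had log2 ratios of -0.06 with PAMH and 0.02 with phenylephrine. The 9 smooth muscle markers on the array summed to 15934 with PAMH and 19093 with phenylephrine, against 8380 unstimulated. With PAMH 5 of the 8 measured were 1.5-fold higher and 1 lower, beside 9.31% and 4.17% of all measured genes. With phenylephrine 6 were higher and 0 lower, beside 8.90% and 4.54% of all measured genes. Cnn1, which encodes calponin, was furthest above its unstimulated signal, at 1396 with PAMH and 1795 with phenylephrine, against 249 unstimulated. Myh11, the smooth muscle myosin heavy chain, was the marker 1.5-fold lower with PAMH, at 179 with PAMH and 282 with phenylephrine, against 278 unstimulated. Smtn read 176 and 156 against 200.4. The list was thus mixed. Besides Cnn1, Acta2 was 1.5-fold higher with both compounds, at 2154 and 1836 against 753, as was Myl9, at 3651 and 4573 against 2335. So were Des, at 3802 and 4498 against 1749, and Synpo2, at 2287 and 2660 against 1022. Tagln passed 1.5-fold with phenylephrine only, at 2278 and 3242 against 1757. Striated myocytes also express Des and Synpo2, and the source of none of these signals was tested. Of the endothelial markers 1 of 8 and of the macrophage markers 3 of 9 were above the floor on all arrays. No marker of these lists was listed at 0. In the main setting the summed signals went both ways on the treated arrays, lower for the fibroblast list and higher for the myocyte and smooth muscle lists. The sums were not recomputed under the alternatives, and the direction of the myocyte list was not settled, as its medians show. The part of other cell types in the members' ratios was not tested.

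Genes with a pattern most like Ccnd1 and Ccnb1 were sought by the distance between their pairs of log2 ratios, PAMH and phenylephrine over unstimulated, among 4160 brighter genes on the 3 arrays. Nearest to Ccnd1 were Creb3, a membrane-bound transcription factor, at 0.0051, Polr1c, a subunit of RNA polymerases I and III, at 0.0311, and Ptpn3, a tyrosine phosphatase, at 0.0312. Nearest to Ccnb1 were Cox17, a copper chaperone of mitochondria, at 0.0168, Spag5, a protein of the mitotic spindle, at 0.0236, and Ube2c, a member, at 0.0430. Within a distance of 0.1 there were 18 genes around Ccnd1 and 21 around Ccnb1, and with 3 arrays sharing 1 unstimulated sample this likeness is only a description.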

How the data were processed

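Total RNA of 3 cultures was measured on 1 Affymetrix rat array each. The deposited values are linear signal intensities for 15923 probe sets, and how the authors computed them is not given in the labels or the file. The trimmed mean intensity was 250.1 on each array of the deposited table. Probe sets were named through the platform annotation, and 12748 of 12783 with 1 symbol were updated through the gene identifier in RefSeq's rat table. The 57 control probe sets were left out. Arrays were scaled to equal medians, and a floor was set at percentile 40. Genes were called at 1.5-fold, which is no test. The 10 alternatives changed the scaling, the floor, an offset of 50, the probe set rule or the symbols. The text names all 9 members, up to 4 genes per direction past 1.5-fold in each cell cycle list, the highest and lowest marker of each cell type list where a result turns on it, and the 3 genes nearest to Ccnd1 and to Ccnb1 in genes whose mean signal exceeded percentile 60. Further genes of the lists were named after their values were seen. Members and lists were chosen with earlier results of these data known. The fold calculation was tested on simulated data. Python 3.11.15, numpy 2.4.6, pandas 2.3.3 and, for quantile and cyclic loess normalization, R 4.3.3 with limma 3.58.1 were used. The number of arrays limits the precision.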

Additional observations from a re-analysis of the deposited data

How the results depend on the processing

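The counts of members at least 1.5-fold higher stayed within 1.5 times the main count under all 10 alternatives, from 4 to 6 with PAMH and from 4 to 5 with phenylephrine, and at 0 for PAMH over phenylephrine. No member past 1.5-fold changed its direction. Of the 270 recomputed ratios of single members, 269 moved by less than the SD between probe sets of a gene, the exception being Pcna with PAMH after quantile normalization. Many of the 270 did not move at all, as changes of the floor or the symbols left every member ratio at its main value. Ccnd2 and Cdk1 with PAMH fell below 1.5-fold on the deposited intensities, after quantile normalization and after cyclic loess. Over 10 classes of genes by mean signal, the median log2 ratio was 0.32 in the brightest class with PAMH and 0.24 with phenylephrine, and 0.01 in the dimmest class with each. No paired analysis was possible because each condition had 1 array, and leaving out an array was not possible for the same reason. Detection calls were not used here.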

Other observations

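Relatives of the members were counted by gene symbol, a step added after seeing the data. Of 12 or 13 other kinesins that could be compared, 3 were at least 1.5-fold higher with PAMH and 2 with phenylephrine, beside 9.31% and 8.90% of all measured genes, and none was lower. Kif5b, a kinesin of organelle transport along microtubules and not of mitosis, read 2435 with PAMH and 2822 with phenylephrine, against 1147 unstimulated, a log2 ratio of 1.09 and 1.30. Kifc3, a minus-end-directed kinesin, read 192 and 199 against 118, with log2 ratios of 0.71 and 0.75. Kif22, a chromosome-binding kinesin of mitosis, read 394 and 349 against 234, with log2 ratios of 0.76 and 0.58. Kif20a was thus not the kinesin furthest from its unstimulated signal.

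Of the 13 other cyclins compared with each compound, Ccng1 was the one at least 1.5-fold higher with either, and none of them was 1.5-fold lower in the main setting. The share higher was near that of all measured genes, 9.31% with PAMH and 8.90% with phenylephrine. Ccng2, which codes for cyclin G2 of resting and arrested cells, could not be compared by a ratio. It lay below the floor of 76.1 on both treated arrays, at 76.0 with PAMH and 54.0 with phenylephrine, against 164 unstimulated, and was at least 2.15-fold lower with each. Of 14 other cyclin-dependent kinases compared with PAMH, Cdk16 (412 against 257, log2 ratio 0.68) and Cdk18 (192 against 124, log2 ratio 0.62) were at least 1.5-fold higher, and neither was on the deposited intensities. With phenylephrine none of 13 was at least 1.5-fold higher. The shares of all measured genes were 9.31% with PAMH and 8.90% with phenylephrine. Of 25 other ubiquitin-conjugating enzymes 2 were at least 1.5-fold higher with PAMH and 1 with phenylephrine, a share below that of all measured genes in each comparison. Ube2g1, an enzyme of protein degradation, was at the threshold with PAMH, at 1128 with PAMH and 1079.5 with phenylephrine, against 752 unstimulated, with log2 ratios of 0.59 and 0.52. Ube2s, the partner of Ube2c at the anaphase-promoting complex, was higher with both compounds, with 999.5 with PAMH and 968 with phenylephrine, against 638 unstimulated. Its log2 ratios of 0.65 and 0.60 fell below 1.5-fold in 4 of 10 alternatives with PAMH and in 5 of 10 with phenylephrine. The 3 other topoisomerases compared were all within 1.5-fold by their brightest probe sets. Another probe set of Top1 gave a log2 ratio of 0.62 for PAMH over phenylephrine, past 1.5-fold, where the brightest gave -0.12.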
